A study of Mus musculus x Mus spretus with 8 samples.

Results

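Phyh, Pde1b, Pla2g5, Wscd1, Mlxipl, Adh7 and Krt17 are 7 of the 49670 genes counted in RNA of mouse fibroblasts. They were chosen by their counts, because their RNA stood higher in both libraries labelled Pygo1-KO than in WT and in the other mutant libraries. Those same counts therefore describe the genes and do not test them, and no p-value is given for a member under the Pygo1 label. The cells were Patski fibroblasts, a female line from a cross of C57BL/6 and SPRET/EiJ mice, in which a read that covers a base that differs between the parents can be given to a parental genome, called genome 1 or genome 2 in the count table. The labels do not name the parent that is genome 1. All 8 libraries come from this line and were grown in DMEM with 10% serum. The groups, with 2 libraries each, carried the genotypes pygo1 -/-, stc1 -/-, rlim -/- and wild type (WT). Each mutant pair was described as independent knockout mutants, and nothing was stated about how the 2 WT libraries relate, so p-values measure only the spread between these libraries, which may be technical.

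Total counts ran from 73128996 to 81500061 per library, and 50.64 to 52.64% of them were assigned to a genome. The targeted genes were measured in every sample first, in CPM (read counts scaled to library size by TMM). Pygo1 measured 2.5 and 0.674 CPM in the Pygo1-labelled pair, against 2.49 and 2.44 in WT. Stc1 stood at 3.67 and 68.4 CPM in the Stc1-labelled pair, against 3.84 and 3.15 in WT, and Rlim at 71.9 and 64.2 CPM in the Rlim-labelled pair, against 57.2 and 51.4 in WT. No target was called lower under its own label (edgeR quasi-likelihood test, adjusted p = 0.715, 0.236 and 0.699 for Pygo1, Stc1 and Rlim), so groups are named by their labels throughout. Of 11 fibroblast markers, Vim (833 to 1279 CPM) and Fn1 were abundant in every library, whereas Thy1 and Lum stayed under 0.1 CPM in all 8 and Col1a2 reached at most 0.189 CPM. The summed fibroblast list was nearly all Fn1 and Vim. It lay at 5106 to 5412 CPM in the Pygo1-labelled pair, 4988 to 5607 in Stc1-labelled, 2446 to 2461 in Rlim-labelled and 3181 to 3306 in WT. Its part in the results below was not tested.

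The members have unlike roles. Phyh encodes phytanoyl-CoA hydroxylase, which begins the alpha-oxidation of phytanic acid, a branched fatty acid, in peroxisomes. Pde1b is a calmodulin-activated phosphodiesterase that breaks down cyclic AMP and cyclic GMP, and Pla2g5 is a secreted phospholipase A2 that frees fatty acids from phospholipids. Wscd1 belongs to a small family of Golgi proteins with a WSC domain and a sulfotransferase domain. Mlxipl encodes ChREBP, a transcription factor that responds to glucose metabolites and binds DNA together with Mlx. Adh7 is an alcohol dehydrogenase that oxidises retinol, and Krt17 is a type I keratin of epithelia and hair follicles that is induced after injury in skin.

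By their GENCODE M21 annotation on GRCm38, Phyh (ENSMUSG00000026664) lies on chromosome 2 from 4919019 to 4938730, plus strand, and Pde1b (ENSMUSG00000022489) on chromosome 15 from 103503034 to 103530052, plus strand. Pla2g5 (ENSMUSG00000041193) lies on chromosome 4 from 138799244 to 138863482, minus strand, and overlaps Pla2g2a on the plus strand. Wscd1 (ENSMUSG00000020811) lies on chromosome 11 from 71749920 to 71789647, plus strand, and Krt17 (ENSMUSG00000035557) on the same chromosome from 100256217 to 100261029, minus strand. Mlxipl (ENSMUSG00000005373) lies on chromosome 5 from 135089890 to 135138382, plus strand, and overlaps Gm43500 on the minus strand. Adh7 (ENSMUSG00000055301) lies on chromosome 3 from 138217760 to 138233382, plus strand, and overlaps 0610031O16Rik on the minus strand. The strand setting is unknown here, so reads of Mlxipl and Adh7 cannot be told apart from those of their overlapping partners where exons meet. Pla2g5 overlaps its partner in gene span, but 0% of its 50-base transcript stretches occur in another gene on either strand.

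Krt17 is the member with near copies that could share its reads. Of its 50-base stretches, 3.99% also occur in another gene, mostly Krt14, against 1.66% in Adh7, 3.46% in Mlxipl and 0% in the other members. The stretch below lies in the coding sequence of Krt17 (coding bases 1080 to 1199, within chr11:100257328-100257534, minus strand, GRCm38) and is set beside the matching stretches of Krt14 (chr11:100204003-100204209), Krt16 (chr11:100246498-100246711) and Krt42 (chr11:100263326-100264579). It is shown because it holds the longest coding run that Krt17 and Krt14 share, 71 bases. Capitals mark bases that differ from Krt17.
Krt17: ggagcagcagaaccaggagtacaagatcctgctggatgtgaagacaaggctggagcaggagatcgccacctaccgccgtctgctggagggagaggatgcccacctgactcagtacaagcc
Krt14: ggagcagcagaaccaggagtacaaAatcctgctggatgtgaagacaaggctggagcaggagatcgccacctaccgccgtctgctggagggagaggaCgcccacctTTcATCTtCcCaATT
Krt16: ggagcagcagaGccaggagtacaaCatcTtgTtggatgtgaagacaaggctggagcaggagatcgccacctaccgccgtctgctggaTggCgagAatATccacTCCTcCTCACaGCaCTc
Krt42: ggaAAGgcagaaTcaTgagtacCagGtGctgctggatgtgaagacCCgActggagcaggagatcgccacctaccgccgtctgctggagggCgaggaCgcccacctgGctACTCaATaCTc
Krt14 differs at 13 of these 120 bases, and Krt16 and Krt42 at 22 each. Krt17 counts were 1417 and 4497 in the Pygo1-labelled pair, where Krt14 had 65 and 25, Krt42 had 23 and 17, and Krt16 had 3 and 4. The copies were thus far below Krt17 in the libraries where Krt17 was highest.

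All 7 members stood higher in both Pygo1-labelled replicates than in all 6 other libraries, a pattern shared by 8.63% of the 17839 genes tested, and it is what the members were chosen for. Their median log2 fold change was 3.63 over WT, 4.9 over the Stc1-labelled pair and 3.46 over the Rlim-labelled pair. The median of all tested genes over WT was -0.0012. A bulk level cannot tell fewer cells expressing a gene from less RNA per cell.

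**Figure D1:**
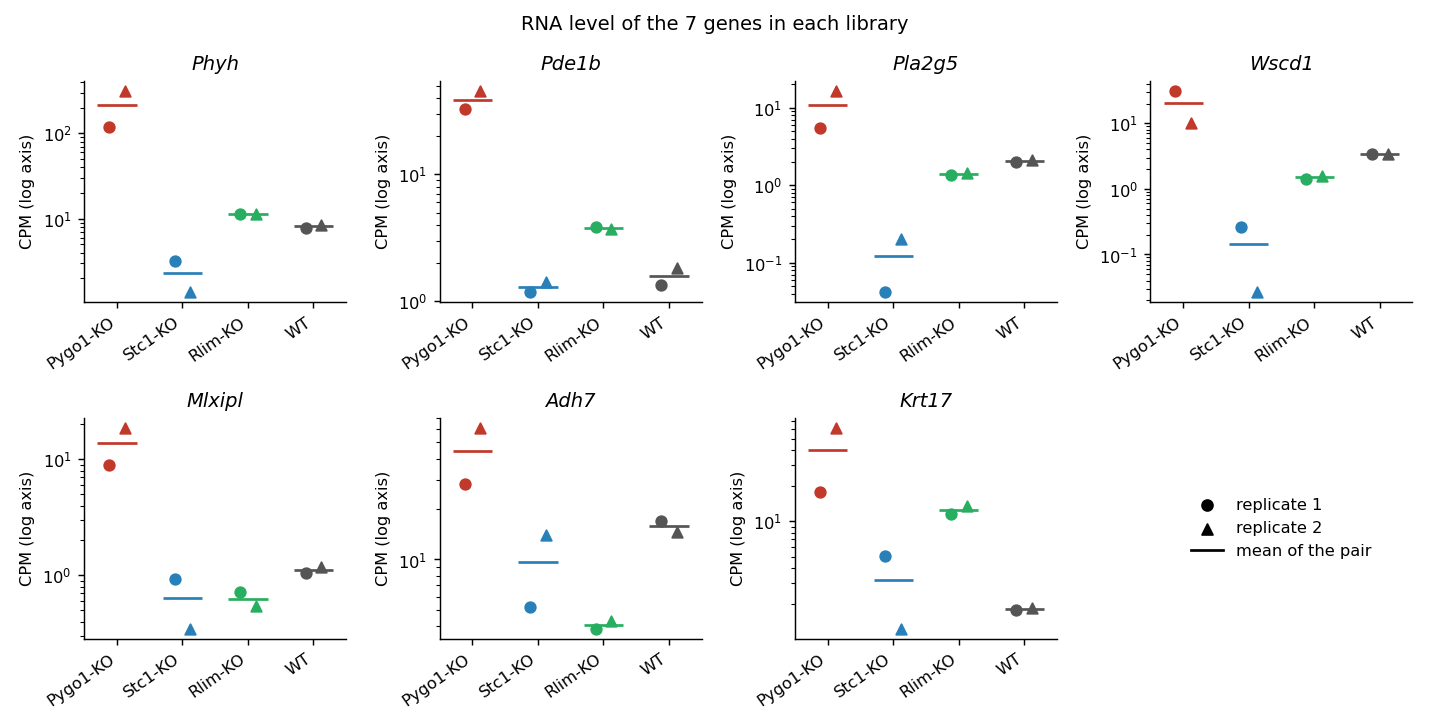
CPM (log axis) of the 7 members in each of the 8 libraries, by label, with a point per library. Phyh reached 119 and 312 CPM in the Pygo1-labelled pair and at most 11.4 elsewhere, whereas Krt17 in the Rlim-labelled pair (11.6 and 13.4) came close to the lower Pygo1-labelled value of 17.8.

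Phyh, the enzyme of alpha-oxidation, had the highest CPM of the members in the Pygo1-labelled pair. It measured 119 and 312 CPM in the Pygo1-labelled pair, 3.23 and 1.38 under Stc1, 11.4 and 11.4 under Rlim, and 7.88 and 8.4 in WT. The lower Pygo1-labelled library was 10.4 times the highest other library, and both Stc1-labelled replicates lay under both WT libraries. Its log2 fold change under the Pygo1 label was 4.72 ± 0.56 (SE, n = 2 per group) over WT, 6.55 ± 0.62 over Stc1 and 4.24 ± 0.55 over Rlim. Pde1b, the phosphodiesterase, was the member whose Pygo1-labelled pair agreed best, at 32.4 and 45.2 CPM, against 1.18 and 1.41 in the Stc1-labelled, 3.85 and 3.73 in the Rlim-labelled, and 1.34 and 1.82 CPM in WT libraries. The Rlim-labelled pair stood above both WT libraries and the Stc1-labelled pair overlapped them. The log2 fold change over WT was 4.62 ± 0.26 (SE, n = 2 per group).

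Pla2g5, the secreted phospholipase, and Wscd1, the Golgi protein, had few reads in the Stc1-labelled pair. Pla2g5 measured 5.54 and 16.4 CPM in the Pygo1-labelled pair, 0.0416 and 0.2 under Stc1, 1.35 and 1.44 under Rlim, and 1.97 and 2.14 in WT. These are 440 and 1190 reads under the Pygo1 label, 3 and 15 under Stc1, 103 and 112 under Rlim, and 151 and 171 in WT. Every library of the Stc1 and Rlim labels was under both WT libraries. Wscd1 was the only member higher in Pygo1-labelled replicate 1 than in replicate 2. It measured 31 and 9.95 CPM in the Pygo1-labelled pair, 0.263 and 0.0266 under Stc1, 1.4 and 1.59 under Rlim, and 3.45 and 3.46 in WT. The Stc1-labelled values rest on 19 and 2 reads. The log2 fold changes over WT were 2.41 ± 0.61 for Pla2g5 and 2.57 ± 0.71 for Wscd1 (SE, n = 2 per group).

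Mlxipl, the gene of ChREBP, measured 8.85 and 18.7 CPM in the Pygo1-labelled pair, 0.928 and 0.346 under Stc1, 0.721 and 0.54 under Rlim, and 1.04 and 1.18 in WT. All 6 other libraries lay at or under 1.18 CPM, and the lower Pygo1-labelled library was 7.51 times the highest of them. Adh7, the retinol-active dehydrogenase, was set least apart from WT. It measured 28.3 and 61.1 CPM in the Pygo1-labelled pair, 5.22 and 14 under Stc1, 3.85 and 4.27 under Rlim, and 17 and 14.6 in WT. The lower Pygo1-labelled library was 1.66 times the higher WT library. The log2 fold changes over WT were 3.63 ± 0.54 for Mlxipl and 1.5 ± 0.50 for Adh7 (SE, n = 2 per group).

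Krt17, the keratin, had the smallest gap to another mutant label. It measured 17.8 and 61.9 CPM in the Pygo1-labelled pair, 5.08 and 1.22 under Stc1, 11.6 and 13.4 under Rlim, and 1.75 and 1.83 in WT. The lower Pygo1-labelled library was 1.33 times the higher Rlim-labelled library. Its log2 fold changes under the Pygo1 label were 4.48 ± 0.82 over WT and 1.67 ± 0.72 over the Rlim-labelled pair (SE, n = 2 per group). Markers of stratified epithelium, a tissue that makes Krt17, summed to 15.5 to 21.2 CPM in Pygo1-labelled, 15.7 to 25.9 in Stc1-labelled, 25.6 to 26.7 in Rlim-labelled and 20.5 to 21.3 CPM in WT libraries. Of the 10, Krt6a was at 0 in all 8 libraries, and Krt16 and Dsg3 stayed under 0.1 CPM. The ranges of the Pygo1-labelled pair and of WT overlapped. Markers of simple epithelium summed to 2.29 to 2.61 CPM in Pygo1-labelled, 7.71 to 22.8 in Stc1-labelled, 5.24 to 5.54 in Rlim-labelled and 12.4 in WT libraries. Most of the difference from WT was Cdh1, at 0.201 and 0.344 CPM in the Pygo1-labelled pair, against 9.52 and 8.91 in WT. Cdh1 was low in the Rlim-labelled pair too, at 0.498 and 0.514 CPM, and stood at 20.1 and 6.36 in the Stc1-labelled pair. Krt8 was at 1.07 and 0.895 CPM in the Pygo1-labelled pair, against 1.08 and 1.18 in WT. The part of these markers in the results was not tested.

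**Figure D2:**
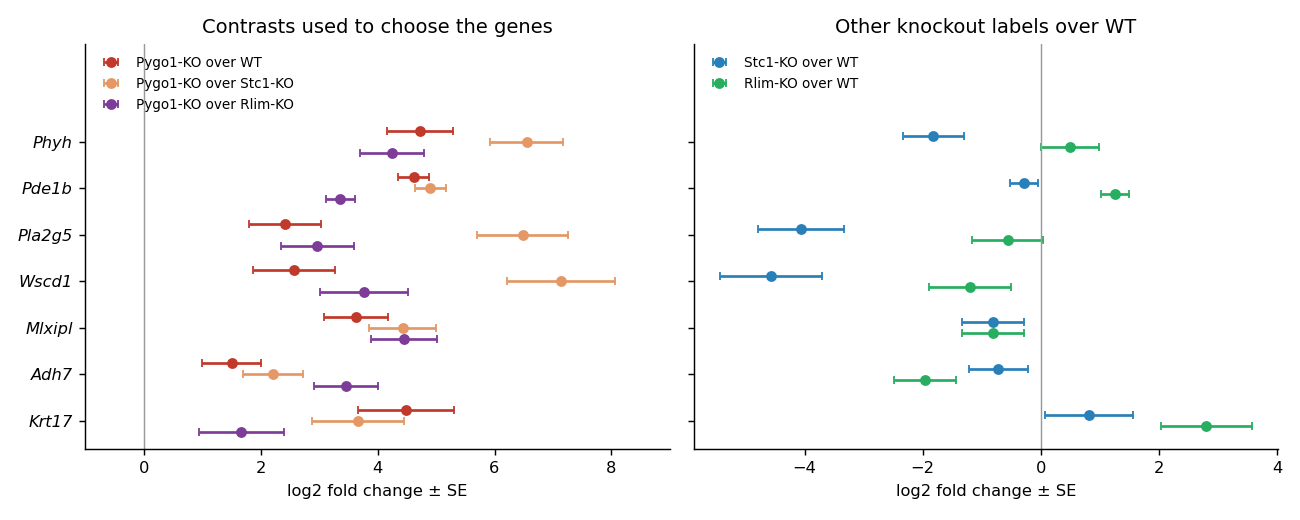
Fitted log2 fold changes with standard errors of the 7 members (n = 2 per group), with each label over WT and the Pygo1 label also over the Stc1 and Rlim labels. Pygo1-labelled values over WT run from 1.5 for Adh7 to 4.72 for Phyh, whereas the Stc1- and Rlim-labelled values over WT lie on both sides of 0.

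Per length of gene, in RPKM (CPM divided by exon length), the order of members differed between Pygo1-labelled and WT libraries. In the Pygo1-labelled pair Phyh averaged 114 RPKM, Krt17 25.7, Adh7 11.8, Pde1b 7.19, Wscd1 4.77, Pla2g5 3.8 and Mlxipl 2.49. In WT the order began with Phyh at 4.3 RPKM and Adh7 at 4.18, and ended with Pde1b at 0.293 and Mlxipl at 0.2. Krt17, at 1.15 RPKM, lay behind both in WT.

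The Pygo1-labelled replicates differed between themselves more for the members than for most genes. Replicate 2 over replicate 1 was 3.47 for Krt17, 2.96 for Pla2g5, 2.62 for Phyh, 2.16 for Adh7, 2.11 for Mlxipl, 1.39 for Pde1b and 0.321 for Wscd1. The median absolute log2 difference within this pair was 1.39 over the 7 members and 0.22 over 13634 genes. The same medians were 1.42 and 0.385 for Stc1, 0.146 and 0.0707 for Rlim and 0.122 and 0.106 for WT. Without Pygo1-labelled replicate 1, the log2 fold change over WT was 5.25 for Phyh, 2.99 for Pla2g5, 5.11 for Krt17 and 1.52 for Wscd1. Without replicate 2 it was 3.86, 1.42, 3.31 and 3.16 in the same order, and 0.831 for Adh7. Pde1b ran from 4.35 to 4.86 over all libraries left out in turn.

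Under the Stc1 and Rlim labels, the members were tested against WT, though their choice as genes raised mainly in Pygo1-labelled lines bears on these values. That choice favoured low values under both labels. The counts of members and the p-values below are therefore a description, also where a share of all genes stands beside them. With the Stc1 label, both libraries were under both WT libraries for Phyh, Pla2g5, Wscd1, Mlxipl and Adh7, 5 of 7 members, against 22.2% of all tested genes. The largest differences were in Wscd1 (log2 fold change -4.57 ± 0.86, edgeR adjusted p = 0.0816) and Pla2g5 (-4.06 ± 0.74, edgeR adjusted p = 0.0749), followed by Phyh (-1.82 ± 0.52, edgeR adjusted p = 0.183). Mlxipl, Adh7 and Pde1b had -0.80, -0.72 and -0.29 (edgeR adjusted p = 0.498, 0.524 and 0.596). Of the 7 members 0 were called in either direction (edgeR quasi-likelihood test), where 0.577% of all tested genes were. The median was -0.802 (0.014 over all genes), and 3 had an unadjusted p under 0.05. The share of all genes under that unadjusted threshold was not counted, so the 3 are not read as a result. DESeq2 called those 3, Phyh, Pla2g5 and Wscd1, as lower, where it called 5.36% of all genes. Without Stc1-labelled replicate 1 edgeR called the same 3, where it called 24.0% of all genes, and without replicate 2 it called Pla2g5 and Wscd1, where it called 6.51%. The value of Krt17 was 0.82 ± 0.74 (edgeR adjusted p = 0.627), and it turned to -0.552 without Stc1-labelled replicate 1.

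With the Rlim label, the members split. Both libraries were above both WT libraries for Phyh, Pde1b and Krt17 (35.7% of all tested genes) and below them for Pla2g5, Wscd1, Mlxipl and Adh7 (35.6%). The log2 fold changes over WT were 2.80 ± 0.77 for Krt17 (edgeR adjusted p = 0.129), 1.26 ± 0.24 for Pde1b (edgeR adjusted p = 0.0604) and -1.96 ± 0.52 for Adh7 (edgeR adjusted p = 0.119). Wscd1, Mlxipl, Pla2g5 and Phyh had -1.20, -0.82, -0.56 and 0.49 (edgeR adjusted p = 0.416, 0.468, 0.68 and 0.657). Of the 7 members 0 were called, where 1.40% of all tested genes were. The median was -0.559 (0.0065 over all genes), and 3 had an unadjusted p under 0.05. As above, the 3 are not read as a result. DESeq2 called these 3, where it called 7.89% of all genes, and edgeR called them without either Stc1-labelled library, where it called 16.3%. When the fit held only WT and the Rlim-labelled pair, whose pairs are the closest, edgeR called 48.9% of all genes and all 7 members, Krt17, Pde1b and Phyh as higher and the other 4 as lower.

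Genome counts were among the values that chose the members, so shares in the Pygo1-labelled pair are given as a description, with no p, as the levels were. Genome counts of the other labels and of WT entered the same choice. The p-values of their shares below are therefore not independent of it. Pla2g5, Wscd1 and Mlxipl had nearly all their RNA from a single genome in every group with enough reads. Pla2g5 had 1 genome 1 read among 1360 in the Pygo1-labelled pair (0.0735%, Wilson 95% interval 0.013 to 0.415%), against 0 of 249 in WT. Wscd1 had 5 of 1909 (0.262%, 0.112 to 0.612%) in the Pygo1-labelled pair, against 1 of 294 in WT. Mlxipl was the reverse, with all 1213 reads from genome 1 in the Pygo1-labelled pair and all 99 in WT. In those genes the higher RNA was carried by the genome that was already in use in WT, at 5.75 times the WT level of genome 2 for Pla2g5, 6.58 times for Wscd1, and 12.8 times that of genome 1 for Mlxipl. Among 14250 autosomal genes with at least 100 genome-assigned reads, 16.9% lay under 2% or over 98% genome 1.

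**Figure D3:**
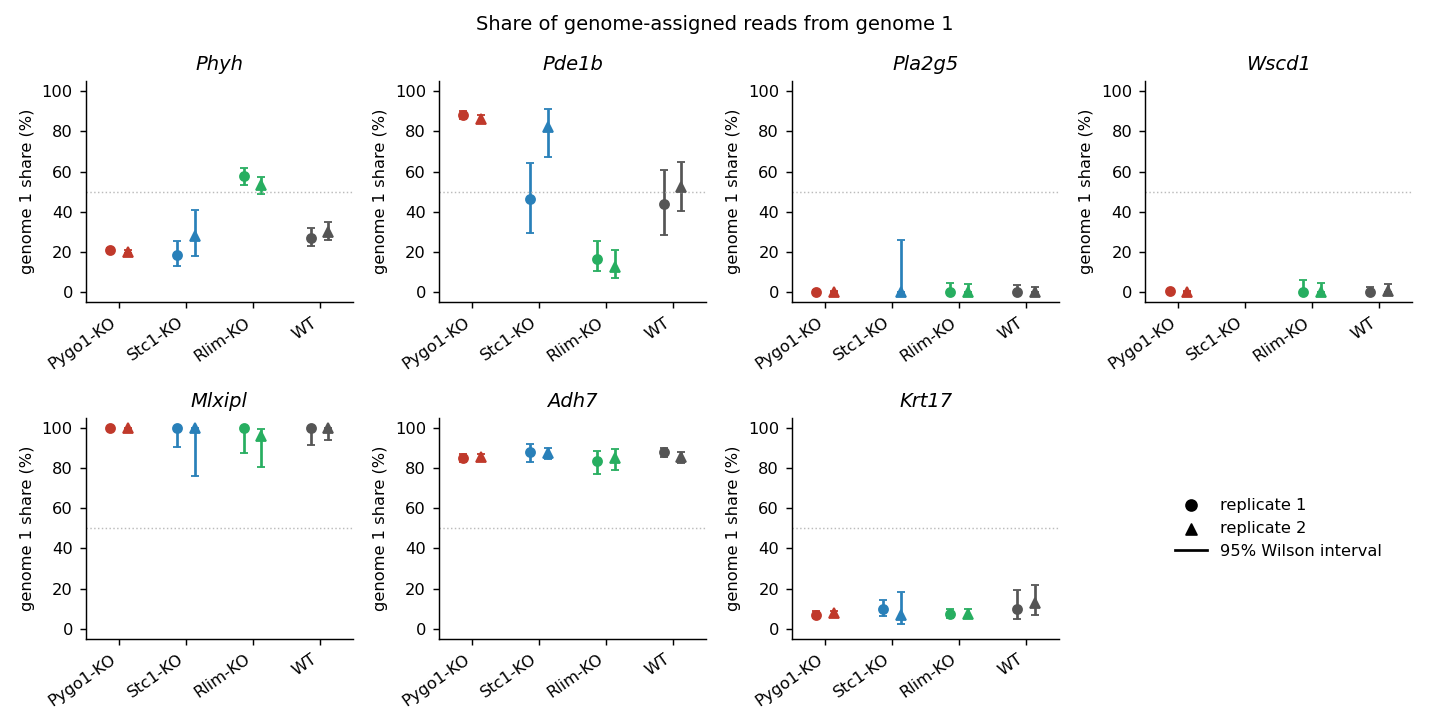
Share of genome-assigned reads from genome 1 (percent) for each member and library with at least 10 such reads, with Wilson 95% intervals, which cover counting error only. Wscd1 therefore has no Stc1-labelled point, and Pla2g5 lacks Stc1-labelled replicate 1. Pla2g5 and Wscd1 lie near 0% and Mlxipl near 100% in all libraries drawn, and Pde1b and Phyh are the members whose shares differ most between labels.

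Adh7 and Krt17 used both genomes, with shares that were close between labels. Genome 1 gave 85.4% of Adh7 reads (84.2 to 86.4%) in the Pygo1-labelled, 87.6% in the Stc1-labelled, 84.2% in the Rlim-labelled and 86.8% in WT libraries. It gave 7.57% of Krt17 reads in the Pygo1-labelled, 9.4% in the Stc1-labelled, 7.41% in the Rlim-labelled and 11.5% in WT libraries. Neither share was called different from WT under the Stc1 or Rlim label (edgeR genome model, lowest adjusted p = 0.362). Both genomes stood higher in the Pygo1-labelled pair, at 2.76 and 3.1 times WT for genomes 1 and 2 of Adh7, and at 15.3 and 24 times for Krt17.

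The shares of Phyh and Pde1b varied most between labels. Phyh had 20.4% genome 1 reads (19.8 to 21%) in the Pygo1-labelled, 21% in the Stc1-labelled, 55.4% (52.4 to 58.3%) in the Rlim-labelled and 28.7% (25.6 to 32%) in WT libraries. Per library the shares were 21 and 20.1% under Pygo1, 18.5 and 28.1% under Stc1, 57.6 and 53.1% under Rlim, and 27.1 and 30.1% in WT, so the Rlim-labelled libraries were the 2 highest. The Rlim-labelled share was higher than in WT (log2 odds difference 1.63, edgeR adjusted p = 0.0238), where 10.6% of 13410 genes were called, and the call was lost without either WT or either Rlim-labelled library. Genome 1 of Phyh stood at 2.8 times WT and genome 2 at 0.906 times WT in the Rlim-labelled pair. In the Pygo1-labelled pair both were higher, at 18.4 and 29.1 times WT.

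Pde1b had 86.9% genome 1 reads (85.5 to 88.3%) in the Pygo1-labelled, 67.2% (55.3 to 77.2%) in the Stc1-labelled, 14.6% (10.2 to 20.4%) in the Rlim-labelled and 49.5% (39.5 to 59.4%) in WT libraries. Per library the shares were 88.1 and 86% under Pygo1, 46.4 and 82.1% under Stc1, 16.7 and 12.4% under Rlim, and 43.8 and 52.5% in WT. The Stc1-labelled pair therefore differed between its 2 libraries, on 28 and 39 reads. Both Pygo1-labelled libraries were above both WT libraries, at a log2 odds difference of 2.83. In the genome model 18.2% of 13410 genes were called under the Pygo1 label, Pde1b among them, and nothing is read from that call. Genome 1 stood at 42.8 times WT and genome 2 at 6.32 times in the Pygo1-labelled pair. In the Rlim-labelled pair genome 1 stood at 0.603 times and genome 2 at 3.44 times WT, and the share was not called different from WT (log2 odds difference -2.47, edgeR adjusted p = 0.101). Under the Stc1 label 0 of the 5 members with enough reads for the test had a share called different from WT, 0 also at an unadjusted p under 0.05, where 5.00% of genes were called (edgeR genome model).

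**Figure D4:**
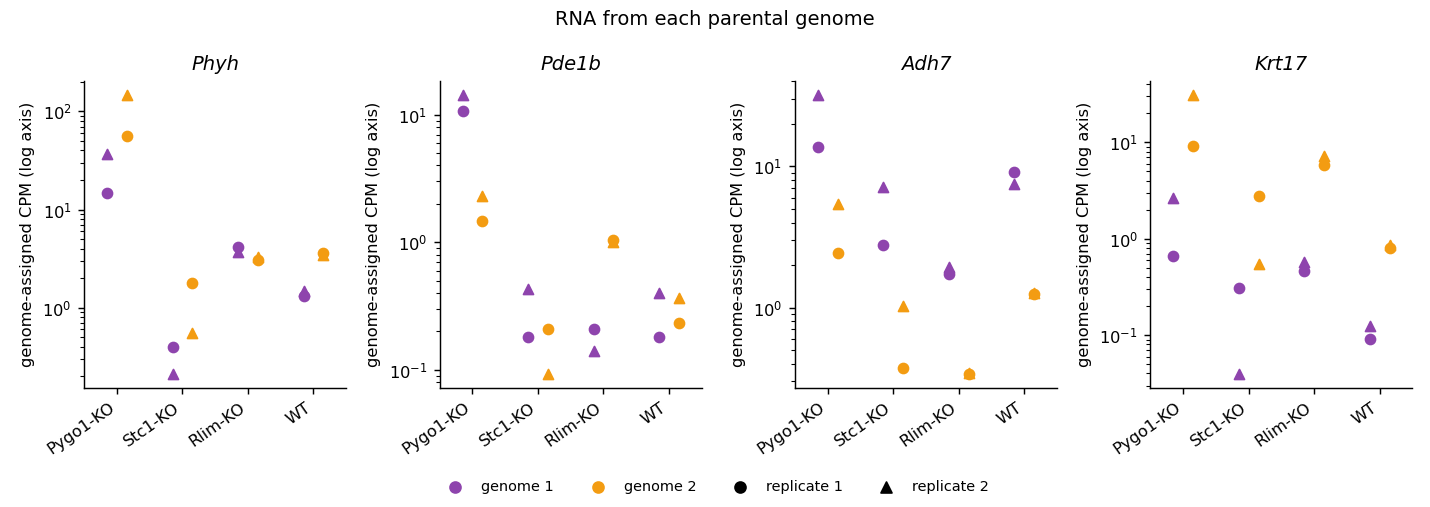
RNA from each parental genome in genome-assigned CPM (log axis) for the 4 members with reads of both, by library. Pde1b stands higher than in WT in both genomes under the Pygo1 label, most in genome 1, whereas in the Rlim-labelled pair genome 2 is the higher.

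The shares were also compared between the mutant labels, after they were seen. The log2 odds difference of Pygo1-labelled from Rlim-labelled libraries was -2.26 for Phyh and 5.3 for Pde1b, and that of Pde1b between Pygo1- and Stc1-labelled libraries was 1.79, all given as a description. The difference of Rlim-labelled from Stc1-labelled libraries was 2.08 for Phyh (edgeR adjusted p = 0.00839) and -3.52 for Pde1b (edgeR adjusted p = 0.0417), where 11.3% of genes were called. Both calls were lost without either Rlim-labelled library, and that of Pde1b also without either WT library.

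The genes on either side were measured to see whether whole regions differed with the members. Over the 5 nearest tested genes on each side, 66 in all, 1 rose under the Pygo1 label (1.54% of all tested genes rose) and 0 fell (0.807%). That gene was Mttp, the microsomal triglyceride transfer protein, 72 kb from Adh7, at 24.1 and 19.6 CPM in the Pygo1-labelled pair, against 9.53 and 8.95 in WT (log2 fold change 1.24 ± 0.17, edgeR adjusted p = 0.022). The neighbours of Adh7 had the highest median under the Pygo1 label among the 7 members. The median of these 10 was 0.999 under the Pygo1 label, all above 0 (0.29 to 2.46), -0.977 under the Stc1 label, all below 0, and -0.107 under the Rlim label. The highest was Adh1, the class I dehydrogenase, at 2.15 and 3.98 CPM in the Pygo1-labelled pair, against 0.612 and 0.501 in WT (2.46 ± 0.63). It was not called (edgeR adjusted p = 0.0972). Adh5, at 128 and 116 CPM in the Pygo1-labelled pair against 77.3 and 75.9 in WT, was not called either (0.67 ± 0.18, edgeR adjusted p = 0.109).

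**Figure D5:**
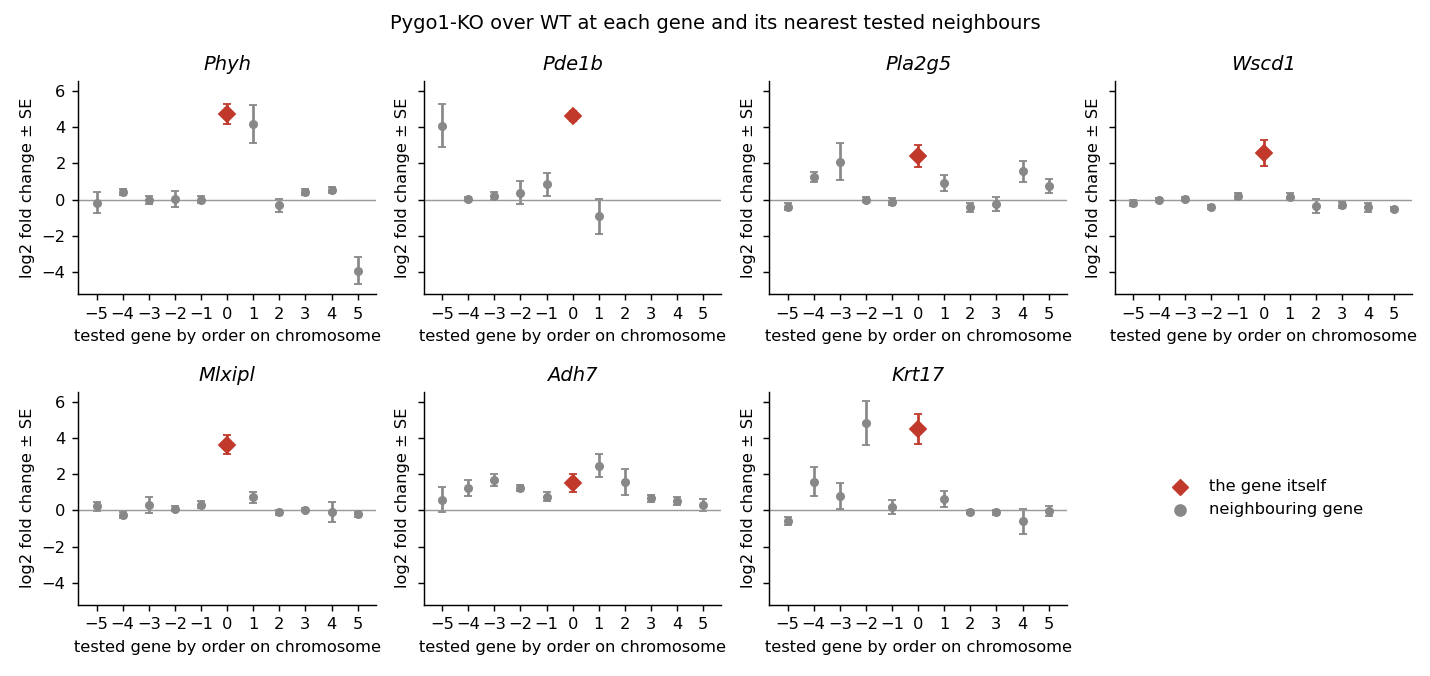
Fitted log2 fold changes over WT in the Pygo1-labelled pair of each member and its 5 nearest tested genes on each side, by rank along the chromosome. The 10 neighbours of Adh7 all lie above 0, between 0.29 and 2.46, and the medians of the other members' neighbours lie between -0.234 and 0.378.

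Around the other members the median over neighbours under the Pygo1 label was 0.0186 for Phyh, 0.3 for Pde1b (1.06 under the Rlim label), 0.378 for Pla2g5, -0.234 for Wscd1, 0.0784 for Mlxipl and 0.084 for Krt17. Krt14, which lies 48 kb from Krt17 and forms filaments with Krt5 in basal epidermis, had 65 and 25 reads in the Pygo1-labelled pair, against 1 and 2 in WT, a ratio of 30.9 (exact 95% interval 10.2 to 153; such intervals pool the reads of a pair and cover counting error only). It was not called in the fit over all genes (edgeR adjusted p = 0.0924). Under the Stc1 label 1 neighbour fell, Pla2g2a, a secreted phospholipase that overlaps Pla2g5 on the opposite strand. It had 2 and 0 reads in the Stc1-labelled pair, against 61 and 69 in WT, a ratio of 0.0164 (exact 95% interval 0.00196 to 0.0603; edgeR adjusted p = 0.0278). Pla2g5 and Pla2g2a were therefore both lowest in the Stc1-labelled pair. Their gene spans overlap, but 0% of the 50-base stretches of Pla2g5 transcripts occur in another gene, on either strand. Under the Rlim label 0 of the 66 neighbours were called, with edgeR.

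Among neighbours, the genome shares were called different from WT around Phyh and Adh7. The neighbours of Phyh had a median genome 1 share of 3.34% in the Pygo1-labelled, 4.03% in the Stc1-labelled, 28% in the Rlim-labelled and 9.41% in WT libraries. Of 6 that could be tested, 4 had a lower share in the Pygo1-labelled pair, 2 a lower share in the Stc1-labelled pair and 5 a higher share in the Rlim-labelled pair than in WT (edgeR genome model). Of all 13410 genes with a test, 18.2%, 5.00% and 10.6% were called in either direction under the Pygo1, Stc1 and Rlim labels. The Rlim-labelled pair was highest, as in Phyh itself. Of 7 testable neighbours of Adh7, 2 had a higher genome 1 share in the Pygo1-labelled pair than in WT, where 18.2% of all genes were called. Under the Stc1 or Rlim label 0 of these neighbours were called. Their medians were 99.3% in the Pygo1-labelled, 98.4% in the Stc1-labelled, 97.5% in the Rlim-labelled and 98.9% in WT libraries. Around Pde1b, 0 of 3 testable neighbours were called under any label, with medians of 25.6% in the Pygo1-labelled, 41.9% in the Stc1-labelled, 25% in the Rlim-labelled and 31.9% in WT libraries. Around Mlxipl, whose own RNA was all from genome 1, the neighbours had medians of 80.4 and 99.9% in the Pygo1-labelled pair, against 77.5 and 77.9% in WT. Pygo1-labelled replicate 2 thus stood apart from the other 7 libraries there. The neighbours of Pla2g5 and Wscd1 had median shares of 1.04 and 1.3% in WT, near the values of those members.

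The pathways and families of the members were listed and read in the same fit. Over the 7 lists, 153 genes other than the members were tested, of which 8 were called under the Pygo1 label (2.35% of all tested genes were), 2 under the Stc1 label and 4 under the Rlim label. For Phyh, 0 of 22 genes of alpha-oxidation and the peroxisome were called under the Pygo1 label, with a median of -0.0324. The smallest p was that of Scp2, a thiolase and sterol carrier of the same pathway (log2 fold change -0.51 ± 0.14, edgeR adjusted p = 0.108). Hacl1, the lyase that acts after Phyh, measured 5.59 and 4.32 CPM in the Pygo1-labelled pair, against 5.42 and 5.36 in WT, so the values overlapped.

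Of 18 cyclic nucleotide phosphodiesterases, 2 rose and 0 fell under the Pygo1 label, with a median of 0.582. Pde1a, another calmodulin-activated member of the PDE1 family, measured 4.54 and 2.41 CPM in the Pygo1-labelled pair, against 0.625 and 0.677 in WT (2.41 ± 0.37, edgeR adjusted p = 0.0308). Pde6h, a gamma subunit of the cone photoreceptor enzyme, rose by 2.46 ± 0.42 (edgeR adjusted p = 0.0405) on 63 and 40 reads in the Pygo1-labelled pair, against 8 and 11 in WT. Pde1c had at most 9 reads in any library and was not tested. Pde4a, a cyclic AMP phosphodiesterase, rose under the Stc1 label (1.32 ± 0.17, edgeR adjusted p = 0.0343) and under the Rlim label (1.65 ± 0.18, edgeR adjusted p = 0.0182).

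For Pla2g5, 0 of 21 genes of phospholipase A2 and eicosanoid synthesis were called under the Pygo1 label. Pla2g6, an intracellular phospholipase A2, had the smallest p, at 233 and 284 CPM in the Pygo1-labelled pair, against 154 and 165 in WT (0.70 ± 0.15, edgeR adjusted p = 0.0673). Pla2g2d and Pla2g2e, relatives of Pla2g5, had at most 3 reads in any library and were not tested. Ptgds, a prostaglandin D synthase, rose under the Rlim label (1.00 ± 0.16, edgeR adjusted p = 0.0386). For Wscd1, 1 of 28 carbohydrate sulfotransferases and related genes rose and 2 fell under the Pygo1 label. Wscd2, the paralog of Wscd1, fell, with 1 and 0 reads in the Pygo1-labelled pair, against 176 and 192 in WT, and the ratio was 0.0028 (exact 95% interval 7.06e-05 to 0.0157; edgeR adjusted p = 0.0323). It also had 0 and 5 reads in the Rlim-labelled pair (edgeR adjusted p = 0.0483) and 2 and 13 in the Stc1-labelled pair, where it was not called (edgeR adjusted p = 0.0972). In the Pygo1-labelled pair Wscd1 and Wscd2 therefore lay on opposite sides of WT.

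Chst1, a keratan sulfotransferase, fell to 10.8 and 11.8 CPM in the Pygo1-labelled pair and to 10.4 and 7.8 in the Stc1-labelled, against 38.3 and 39.9 in WT (edgeR adjusted p = 0.00775 and 0.00738). Chst2, a sulfotransferase for N-acetylglucosamine, rose under the Pygo1 label, at 69.9 and 43.9 CPM against 16.4 and 18.2 in WT (1.72 ± 0.27, edgeR adjusted p = 0.035). Of 22 ChREBP partners and targets, 1 rose and 2 fell under the Pygo1 label. Pklr, the liver and red cell pyruvate kinase and a textbook ChREBP target, measured 27.6 and 57.5 CPM in the Pygo1-labelled pair, against 9.34 and 9.89 in WT (2.15 ± 0.38, edgeR adjusted p = 0.0436). It also stood above both WT libraries under Stc1 (23.3 and 13.6 CPM) and Rlim (16.6 and 17.4), without a call (edgeR adjusted p = 0.282 and 0.308). Mlxipl itself lay below both WT libraries under those labels. Acly, which makes cytosolic acetyl-CoA, and Tkt, the transketolase of the pentose phosphate pathway, fell, by 0.716 and 0.768 on the log2 scale (edgeR adjusted p = 0.0283 and 0.0456). Acly fell under the Rlim label too, by 0.684 (edgeR adjusted p = 0.0386). Mlx, the partner of ChREBP, and Mlxip, its paralog MondoA, were not called under the Pygo1 label, at log2 fold changes of -0.23 ± 0.16 and 0.15 ± 0.19 (edgeR adjusted p = 0.454 and 0.686).

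Of 21 genes of retinol and retinoic acid metabolism 0 were called under the Pygo1 label, with a median of 0.302, and Adh1 had the smallest p. Of 21 keratins and desmosome genes 0 were called, with a median of -0.0451. Krt4, a type II keratin of mucosal epithelia, had the smallest p, at 4.24 and 2.52 CPM in the Pygo1-labelled pair, against 103 and 112 in WT (edgeR adjusted p = 0.0684). It also lay below WT under the Stc1 label (4.54 and 0.2 CPM) and the Rlim label (34.7 and 37). Neither was called (edgeR adjusted p = 0.0968 and 0.424). The unadjusted p was under 0.05 for 3 of the alpha-oxidation list, 6 of the phospholipase list, 7 of the retinol list and 6 of the keratin list. The share of all genes under that threshold was not counted, so these counts are not read as a result. DESeq2 called 30 of the 153 listed genes under the Pygo1 label, where it called 9.46% of all genes. The 16 calls of listed genes, Mttp and Pla2g2a were all lost without WT replicate 1 and all without WT replicate 2, 14 of them without either Rlim-labelled library, and 13 with the replicate number in the model. By DESeq2 0 of the 16 were lost.

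Other genes were ranked by how closely they followed the members over the 8 libraries. Against the mean of the members' standardised log2 CPM, the highest of 12112 genes were Scly (selenocysteine lyase; Pearson's r = 0.993), Arsb (arylsulfatase B; 0.991), Grina (0.987), Lgals9 (galectin 9; 0.986) and Creld2 (0.979), and those after them included Pnpla7, Adra1d, Fam118a and Lncenc1 (0.976 to 0.966). Scly measured 251 and 294 CPM in the Pygo1-labelled pair, 152 and 141 under Stc1, 168 and 175 under Rlim, and 175 and 189 in WT, and Lgals9 was at 79.6 and 80.4 CPM under the Pygo1 label, 14.6 and 15.5 under Stc1, 23.8 and 25.8 under Rlim, and 26.3 and 28.8 in WT. The ranking rests on 8 points, of which the 2 Pygo1-labelled ones lie apart, so it is given as a description. The single gene closest to a member was Grina for Phyh (0.988), Sdsl for Pde1b (0.983), C1qtnf6 for Pla2g5 (0.996), Cd59a for Wscd1 (0.989), Igfbp3 for Adh7 (0.99) and Mrtfa for Krt17 (0.988). Between members r ran from 0.255 for Adh7 and Krt17 to 0.954 for Phyh and Pde1b. Because levels were standardised, r does not measure the size of a difference. Under the Pygo1 label the log2 fold change over WT was only 0.106 for Cd59a, 0.289 for Pnpla7 and 0.482 for Fam118a. It was 1.54 for Lgals9 and 3.29 for Lncenc1.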

How the data were processed

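RNA was extracted with Trizol and made into libraries with an Illumina TruSeq RNA kit, per the labels' protocols. The submitters' processing notes name mm10, featureCounts, Cufflinks and HISAT2 2.0.5, with no role given for each. The table deposited by the authors holds raw counts per Ensembl gene in 3 measures for each of 8 libraries (all reads, genome 1, genome 2). The annotation, strand setting, treatment of multiply mapped reads and how reads were split between genomes are not given in the sources used here, and reads of an mm10 alignment can favour C57BL/6, so shares were compared between libraries only. All mapped columns were used.

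Of 49670 genes, 49411 matched GENCODE M21 on GRCm38, and the others made up no more than 0.0139% of any library. The fit used edgeR 4.0.16 in R 4.3.3, TMM scaling, the default filter (17839 genes) and 1 mean per group over all 8 libraries; the common biological coefficient of variation was 24.6%. A gene was called where p, adjusted over all tested genes by Benjamini-Hochberg, was under 0.05. Genome counts were fitted with a term per library and a genome term per group, for 13410 genes with at least 10 genome-assigned reads in every library. A further 329 genes whose genome counts summed to more than all counts were left out. Pla2g5 and Wscd1 fell under that minimum, so their shares have no test, and the model says little for Mlxipl, with reads of 1 genome. Shares in the Pygo1-labelled pair were fitted in the same model and are given with no p, since genome counts under that label were among the values that chose the members. Genome counts of the other labels and of WT entered the same choice, so the p-values of their shares are not independent of it. Wilson 95% intervals and exact intervals of read ratios, which pool the libraries of a group, cover counting error only and not the spread between libraries. DESeq2 1.42.0, other scalings, filters and samples, and a replicate term were the alternatives. Comparisons of shares between mutant labels and of Rlim with Stc1 were added after values were seen.

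The members and the lists were chosen with earlier results of these data known. Genes named beside the members are the targets, close family copies, up to 4 called genes per list (otherwise the one with the smallest p), called neighbours, and the genes of highest correlation among those with a mean of at least 1 CPM in some group; Krt14, Adh1 and Adh5 enter as family copies, and Pde4a, Ptgds and other genes called under the Stc1 or Rlim label were named after their values were seen. A gene that the correlation rule names is not reported here. Figures were drawn with matplotlib 3.10.9.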

Additional observations from a re-analysis of the deposited data

Results flagged for a closer look

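Phyh differed between the Rlim and Stc1 labels in level and in parental share. Both Rlim-labelled libraries stood above both WT libraries and both Stc1-labelled libraries below them. The log2 fold change of Rlim-labelled over Stc1-labelled libraries was 2.31 ± 0.53 (SE, n = 2 per group), which was not called (edgeR, adjusted p = 0.125). Its genome 1 share, as a log2 odds difference, was higher by 2.08 in the Rlim-labelled than in the Stc1-labelled libraries (edgeR, adjusted p = 0.00839), a call that was lost without either Rlim-labelled library. The difference of the Pygo1-labelled from the Rlim-labelled libraries was -2.26, with both Pygo1-labelled shares below both WT shares and both Rlim-labelled shares above them. No p is given for it, as genome counts under the Pygo1 label were among the values that chose the genes. Those of the other labels entered the same choice, so the p-values given here for Phyh and Pde1b are not independent of it. The neighbours of Phyh differed in the same direction. Their median genome 1 share was 28% in the Rlim-labelled and 4.03% in the Stc1-labelled libraries, against 9.41% in WT.

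Pde1b differed in share between the same labels, in the opposite sense. The log2 odds difference of the genome 1 share was 5.3 for Pygo1-labelled against Rlim-labelled libraries, with both Pygo1-labelled shares above both WT shares and both Rlim-labelled shares below them, and no p is given for the same reason. It was -3.52 for Rlim-labelled against Stc1-labelled libraries (edgeR, adjusted p = 0.0417), a call that was lost without either Rlim-labelled or either WT library. Of the 13410 genes with a test, 11.3% were called in that comparison.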

How the results depend on the processing

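The median log2 fold change of the 7 members kept its sign in each alternative run. With each library left out in turn it ran from 3.16 to 4.07 for Pygo1-labelled over WT, 4.65 to 5.31 over Stc1-labelled, 3.1 to 3.57 over Rlim-labelled, -1.68 to -0.798 for Stc1-labelled over WT and -0.611 to -0.492 for Rlim-labelled over WT. Members called under the Stc1 label were 0 (edgeR), 3 by DESeq2, 3 unfiltered and 0 to 3 with a library left out. Under the Rlim label they were 0 (edgeR), 3 by DESeq2, 3 unfiltered, 7 with the compared groups alone and 0 to 3 with a library left out. Listed genes called under the Pygo1 label were 8, and became 30 by DESeq2, 33 with the compared groups alone, 16 unfiltered, and 0 to 57 with a library left out. Under the Stc1 label 2 became 26, 0, 9, and 0 to 61, and under the Rlim label 4 became 19, 89, 11 and 0 to 34, in the same order. Over all genes, DESeq2 called 9.46%, 5.36% and 7.89% under the Pygo1, Stc1 and Rlim labels. With the compared groups alone edgeR called 48.9% under the Rlim label. Where no share over all genes is given, a count is not read as a result about these genes. Members with a changed genome 1 share numbered 1 under the Rlim label, where 10.6% of 13410 genes were called. That number was also 1 with a minimum of 5 or 20 reads, but it changed with a library left out. Over the alternative runs the log2 odds differences from WT ran from 1.5 to 1.76 for Phyh and from -2.72 to -2.19 for Pde1b. Such members are not counted under the Pygo1 label, as genome counts under that label were among the values that chose the members. Among 10 genes on each side, 2, 3 and 1 neighbours were called under the Pygo1, Stc1 and Rlim labels. The cause was not tested. The differences within pairs had correlations of -0.173 to 0.168 over pairs of groups, the highest for Rlim with WT. With 1 difference per group, these values cannot decide whether same-numbered libraries share a batch. With the replicate block, listed genes called were 1, 1 and 0 under the Pygo1, Stc1 and Rlim labels, and the medians of the members were 3.64, -0.883 and -0.557. Of 903 further values of single genes, 7 turned sign, none of them a call. With each library left out in turn, Krt17 under Stc1 ran from -0.552 to 1.5 over WT. The log2 odds differences of shares ran from -0.123 to 2.25 for Pde1b and -0.015 to 0.28 for Adh7, each Stc1 against WT, from -0.489 to 0.0523 for Krt17 and -0.601 to 0.186 for Phyh, each Pygo1 against Stc1, from -0.147 to 0.0847 for Krt17, Pygo1 against Rlim, and from -0.462 to 0.0795 for Krt17, Rlim against Stc1. Counts of 2 to 19 reads limit Pla2g5 and Wscd1 in the Stc1-labelled libraries.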
